A study of Mus musculus with 6 samples.

Results

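The 10 genes described here belong to the antioxidant programme of the transcription factor NRF2: Nfe2l2, Keap1, Hmox1, Nqo1, Gclc, Gclm, Txnrd1, Srxn1, Gsr and Osgin1. They were found by name among the probes of the arrays, and 12 of the 55681 probes carried these names, 2 each for Hmox1 and Gsr and 1 for every other gene. The 10 genes stand among 35527 names on the arrays, of which 22034 had a brightest probe bright enough to be tested. All 12 probes were well above background on all 6 arrays, no spot of them was saturated, and all 12 were tested.

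NRF2, the product of Nfe2l2, is a basic leucine zipper factor that binds antioxidant response elements together with small MAF proteins. In unstressed cells KEAP1 captures it and hands it to a CUL3 ubiquitin ligase, and oxidants or electrophiles that modify KEAP1 let it accumulate. Because this control acts on the protein, the mRNA of Nfe2l2 need not follow its activity. Its targets make and recycle glutathione (Gclc, Gclm, Gsr), run the thioredoxin system (Txnrd1, Srxn1), detoxify quinones (Nqo1) and degrade haem (Hmox1). Osgin1, a stress-inducible growth inhibitor, is another known target.

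The cells were 3T3, an established line of mouse embryonic fibroblasts, and every array came from this single line. They were treated for 48 h with GapmeR control or with GapmeR Ntep, a short antisense DNA with modified ends that makes RNase H cut the long non-coding RNA Ntep, both at 50 nM. The array documentation of the study describes repeated dosing at that concentration. The 3 independent experiments each contributed a culture for either GapmeR, and the 6 RNAs were hybridised to Agilent arrays in a single color on 1 slide. The comparison asks which genes respond when Ntep is silenced. Levels below are quantile normalized intensities on a linear scale, which can be compared between arrays for a probe but not between probes. Differences are log2 of GapmeR Ntep over GapmeR control, so that 1 is a doubling of intensity, and a gene was called at a limma adjusted p below 0.05.

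The probe of the targeted RNA itself, named A630089N07Rik and placed at chr16:98283712-98283771 in mm9, gave 472, 91.5 and 226 where the label is GapmeR Ntep (experiments 1, 2 and 3). It read 271, 272 and 361 on the matching GapmeR control arrays. Means were 263 ± 193 and 302 ± 51.6 (SD, n = 3 each). Their log2 difference, -0.48 (SE 0.58), did not pass (limma adjusted p = 0.632). Without GapmeR Ntep replicate 2 it was 0.13. In experiment 1 the array labelled GapmeR Ntep was the higher of its pair, so this array went against its label, and every direction below is that of the label. Per array, 43.7% to 53.3% of probes were well above background. The arrays of an experiment deviated from their label means together only in part. These deviations correlated at 0.466, 0.300 and 0.254 within experiments 1, 2 and 3, beside -0.327 to 0.126 for other pairs. The markers expected of fibroblasts were bright: Col1a2 averaged 168979 in the controls, while Dcn averaged 589. Of 10 fibroblast markers, 9 were lower with GapmeR Ntep. None was called, beside 5.16% of all tested genes, and 1 (Dcn, lower) with experiments as blocks, beside 13.9%. Their summed level was 555793 to 737645 against 808632 to 892119. Such a sum, here and for other markers below, adds different probes and weighs the brightest most. Sums and rankings of markers therefore describe probe intensities and not amounts of RNA. Whether fewer cells of a type or less RNA per cell lies behind a level cannot be told apart in such bulk samples.

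By brightest probe, Osgin1 had the largest difference of the 10 genes and Srxn1 the most even difference across the experiments. Osgin1 was 3.31-fold higher with GapmeR Ntep, and Srxn1, which encodes the sulfiredoxin that restores over-oxidised peroxiredoxins, was 1.52-fold higher. Both were higher in all 3 experiments, with no overlap between the labels. Neither passed the adjusted threshold without pairing of the experiments, and with pairing only Osgin1 did.

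The Osgin1 probe (chr8:121970077-121970136, mm9) read 12909, 5163 and 6617 with GapmeR Ntep in experiments 1 to 3. The GapmeR control arrays read 2916, 1822 and 2295. The lowest GapmeR Ntep array was therefore above the highest control array, and experiment 1 held the highest array of either label. Group means were 8229.5 ± 4117 and 2345 ± 549 (SD, n = 3 each). The log2 difference was 1.73 (SE 0.39, limma adjusted p = 0.0591). Within experiments 1, 2 and 3 the difference was 2.15, 1.50 and 1.53. With experiments as blocks Osgin1 passed, at the same difference (adjusted p = 0.0316), and it was the only gene of the 10 to do so. That call was lost when any experiment was left out of the blocked fit (limma adjusted p = 0.113, 0.123 and 0.235 without experiments 1, 2 and 3), where the difference was 1.52, 1.84 and 1.82. Such a fit leaves 2 pairs and called 0 of all genes, so the loss is not particular to Osgin1. The two-sided p of an exact permutation test was 0.1, the smallest that 3 against 3 arrays allow. The highest Osgin1 array, GapmeR Ntep in experiment 1, was also the array that went against its label for the targeted RNA. Without that array the log2 difference of Osgin1 in the unpaired fit was 1.34 (limma adjusted p = 0.0816).

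The Srxn1 probe (chr2:151937009-151937068, mm9) read 63959.9, 53465 and 47204 with GapmeR Ntep. The controls read 43524.5, 33765 and 31372, so that again no control array reached a GapmeR Ntep array. Means were 54876 ± 8467 and 36221 ± 6437 (SD, n = 3 each). Srxn1 had a log2 difference of 0.60 (SE 0.21) and a limma adjusted p of 0.151, or 0.0583 with experiments as blocks. The differences within experiments, 0.56, 0.66 and 0.59, spanned a narrow range.

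The bases just before the start sites of both genes are printed because both carry the same letters of an antioxidant response element, and those of Gclm for its other form. The search used TGACNNNGC, the core of that element, and TGAGNNNGC, a relaxed form, on both strands of windows from 250 bases before to 50 after each start (RefSeq, GRCm38.p6). Capitals mark the matches in the 250 bases before the start, written 5′ to 3′ on the strand of the gene. The positions are chr8:119436897-119437146 for Osgin1, chr2:152105274-152105523 for Srxn1 and chr3:122245307-122245556 for Gclm, all on the plus strand.
Osgin1: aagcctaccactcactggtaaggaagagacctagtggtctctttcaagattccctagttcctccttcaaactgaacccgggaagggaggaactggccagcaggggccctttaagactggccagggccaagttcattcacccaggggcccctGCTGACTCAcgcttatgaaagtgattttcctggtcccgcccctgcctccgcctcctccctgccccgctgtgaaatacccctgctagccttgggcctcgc
Srxn1: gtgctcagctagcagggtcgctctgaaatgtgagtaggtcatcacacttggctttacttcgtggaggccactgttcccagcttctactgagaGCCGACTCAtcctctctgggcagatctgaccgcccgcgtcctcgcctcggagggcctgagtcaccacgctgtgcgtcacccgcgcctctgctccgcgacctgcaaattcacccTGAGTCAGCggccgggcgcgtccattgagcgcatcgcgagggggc
Gclm: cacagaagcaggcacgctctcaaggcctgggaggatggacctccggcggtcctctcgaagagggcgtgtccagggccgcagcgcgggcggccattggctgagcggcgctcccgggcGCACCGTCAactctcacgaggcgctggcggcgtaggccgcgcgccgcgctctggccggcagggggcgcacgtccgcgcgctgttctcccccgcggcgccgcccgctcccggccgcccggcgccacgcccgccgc
The match of Osgin1 began 99 bases before the start and that of Srxn1 nearest the start at 45 bases, and both read TGAGTCAGC in the direction of the motif. These letters also hold TGAGTCA, the site of AP-1 factors, so that the same bases match both descriptions. Srxn1 had a further match 158 bases before the start and another 29 bases after it. Gclm had 1 match, TGACGGTGC in the direction of the motif, 134 bases before the start. Of the 10 genes 7 had windows, 9 in all, since Txnrd1 had 3. Matches lay in 5 of these 7 genes and in 5 of the 9 windows (55.6%), the other two being Nfe2l2 and 1 window of Txnrd1, while Nqo1 and Keap1 had none. Among all 32851 windows, 27.8% held a match to either motif, 12.4% held TGACNNNGC and 5.2% held TGACTCA or TGAGTCA. Of the 9 windows of the 7 genes, 4 (44.4%) held TGACNNNGC and 2 (22.2%) held TGACTCA or TGAGTCA. The form shared by Osgin1 and Srxn1, TGAGNNNGC, lay in 17.6% of all windows and in 2 of the 9 (22.2%), a share near that background. Hmox1, Gclc and Gsr had no window in the table. A match of letters is a description of these windows, not evidence of binding.

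**Figure D1:**
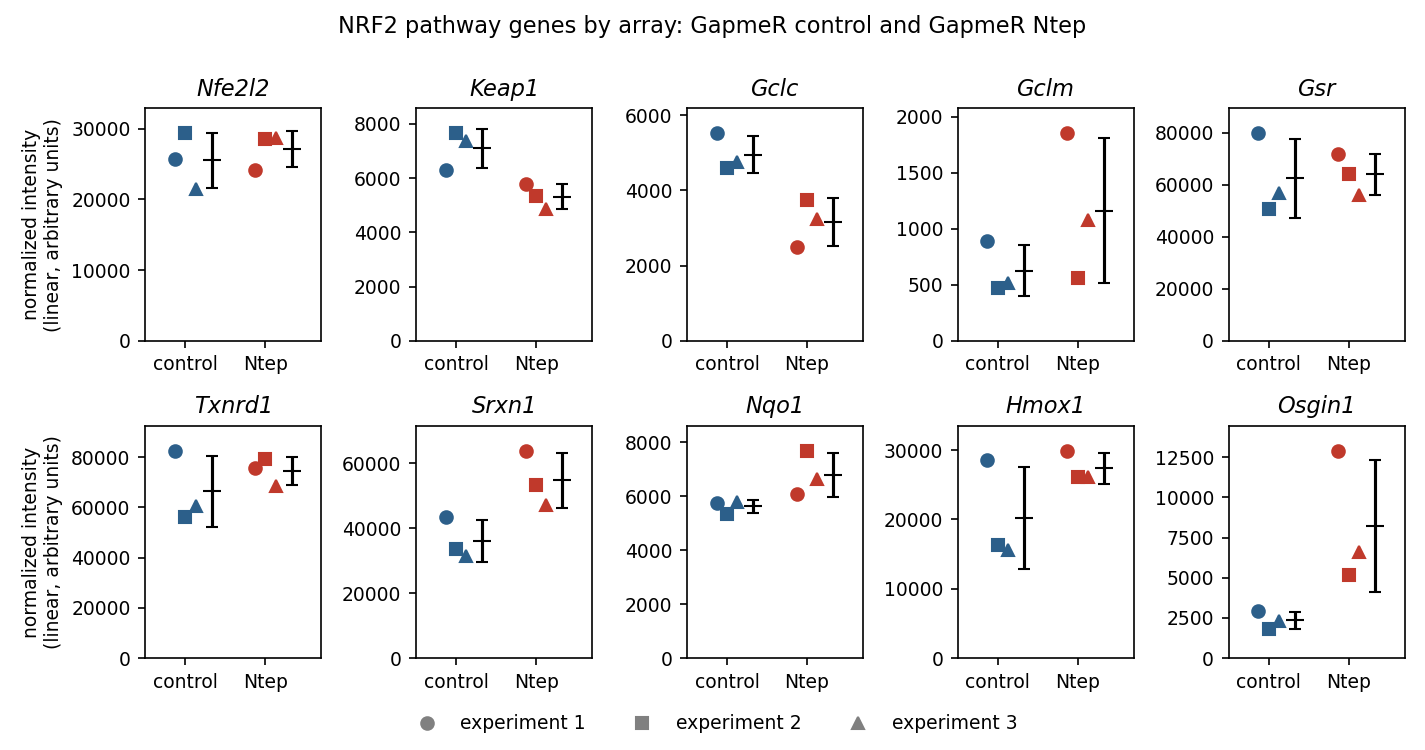
Quantile normalized intensity (linear axis from 0, arbitrary units) of the brightest probe of each of the 10 genes in the 3 GapmeR control (blue) and 3 GapmeR Ntep (red) arrays. Symbols mark experiments, and bars show mean ± SD (n = 3). Osgin1, Srxn1 and Nqo1 are higher and Keap1 and Gclc lower on every GapmeR Ntep array than on every control array.

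Gclc and Gclm, which act in glutathione synthesis, had differences of opposite sign. Gclc encodes the catalytic subunit of glutamate-cysteine ligase, which makes the first, rate-limiting step, and Gclm encodes its modifier subunit. Gclc was lower in all 3 experiments without overlap, whereas Gclm was higher in all 3 but overlapped between the labels. Neither passed the adjusted threshold.

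The Gclc probe (chr9:77641296-77641355, mm9) read 2492, 3749.6 and 3244 with GapmeR Ntep. The controls read 5515, 4593 and 4743, all above the GapmeR Ntep arrays. The means of 3162 ± 633 and 4950.2 ± 495 (SD, n = 3 each) differed by a log2 value of -0.66 (SE 0.21, limma adjusted p = 0.124). Within experiments the difference was -1.15, -0.29 and -0.55, largest in size in experiment 1.

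The Gclm probe of 60 bases spans 2636 bases of the genome (chr3:121962174-121964809, mm9). It read 1849.96, 560.3 and 1075 with GapmeR Ntep, a wide spread in which experiment 1 was highest. The controls read 891, 474 and 514, so that the array of GapmeR Ntep in experiment 2 lay under the control of experiment 1. The log2 difference was 0.79 (SE 0.49, limma adjusted p = 0.367, or 0.0954 with experiments as blocks), and within experiments it was 1.05, 0.24 and 1.06. It was 0.37 without GapmeR Ntep replicate 1 and 1.23 without GapmeR Ntep replicate 2. The difference between the log2 differences of Gclm and Gclc was 1.45, at 2.20, 0.54 and 1.61 within experiments, with a two-sided p of 0.2 in an exact permutation test over the arrays. It was 1 of 5 gene pairs compared in this way, chosen after the values were seen, and the adjusted p over the 5 pairs was 0.25.

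Gsr, the reductase that regenerates glutathione, had log2 differences near 0 in both probes. The brighter probe (chr8:34808488-34808547, mm9) read 71908, 64146 and 56083 with GapmeR Ntep and 79785, 50873 and 56949.5 in the controls. Its log2 difference was 0.05 (SE 0.23, adjusted p = 0.903), and that of the dimmer probe (chr8:34808413-34808472) was 0.07 (SE 0.21, adjusted p = 0.854). The sign of Gsr turned when GapmeR Ntep replicate 1 or GapmeR control replicate 2 was left out, to -0.03 and -0.08.

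Hmox1, the inducible haem oxygenase, and Nqo1, the quinone reductase, were higher in all 3 experiments by amounts that did not pass. The brighter Hmox1 probe (chr8:77624207-77624266, mm9) read 29909, 26066 and 26066 with GapmeR Ntep. The controls read 28608, 16316 and 15563, and the control of experiment 1 alone lay within the range of the GapmeR Ntep arrays. The log2 difference was 0.49 (SE 0.28, limma adjusted p = 0.321), at 0.06, 0.68 and 0.74 within experiments. Without GapmeR control replicate 1 it was 0.78 (adjusted p = 0.081). The dimmer Hmox1 probe (chr8:77620797-77620856) read 1464, 1373 and 1126 against 1119, 734 and 586. Its arrays did not overlap, and its difference was 0.74 (SE 0.28, limma adjusted p = 0.171). The probes of Hmox1 thus had the same sign, with the overlap in the brighter alone.

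The Nqo1 probe (chr8:109912440-109912499, mm9) read 6068, 7685 and 6629 with GapmeR Ntep and 5742, 5349 and 5789 in the controls. The labels did not overlap, with a log2 difference of 0.27 (SE 0.17, limma adjusted p = 0.377), at 0.08, 0.52 and 0.20 within experiments. Txnrd1, the cytosolic thioredoxin reductase, had an overlapping range (chr10:82360230-82360289, mm9). It read 75798, 79405 and 68526 with GapmeR Ntep against 82622, 56180 and 60678, for a difference of 0.18 (SE 0.21, limma adjusted p = 0.607). Experiment 1 was negative for Txnrd1, at -0.12. The difference of Txnrd1 was 0.35 without GapmeR control replicate 1 and 0.07 without GapmeR control replicate 2, and that of Nqo1 was 0.17 without GapmeR Ntep replicate 2.

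The regulators themselves gave no called change. The Nfe2l2 probe (chr2:75513771-75513830, mm9) read 24178, 28489 and 28645 with GapmeR Ntep and 25685, 29312 and 21529 in the controls. These ranges overlapped, with a log2 difference of 0.09 (SE 0.19, limma adjusted p = 0.784) that was -0.02 without GapmeR control replicate 3. The Keap1 probe of 60 bases spans 441 bases (chr9:21035292-21035732, mm9) and read 5769, 5338 and 4845 with GapmeR Ntep. Its controls read 6283, 7645 and 7359, all above the GapmeR Ntep arrays. The log2 difference of Keap1 was -0.41 (SE 0.17, limma adjusted p = 0.203), at -0.12, -0.52 and -0.60 within experiments.

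**Figure D2:**
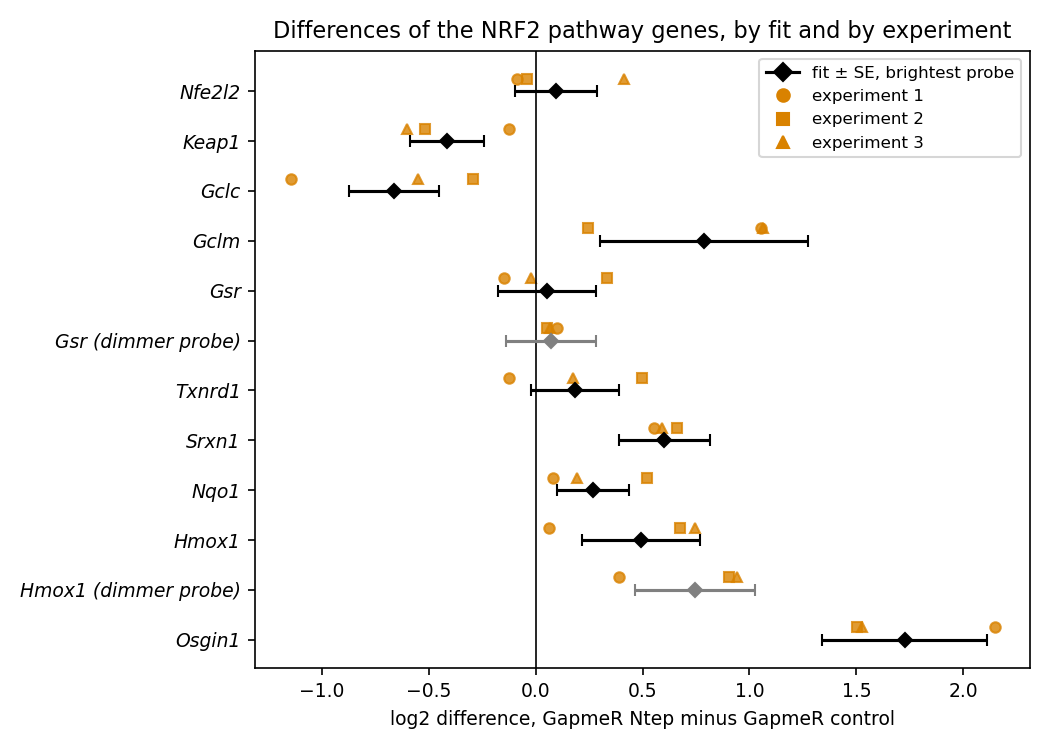
Log2 difference of GapmeR Ntep minus GapmeR control for each probe of the 10 genes (diamonds, limma fit ± SE, grey for the dimmer probes), with the difference within each experiment as orange symbols. Osgin1 lies farthest to the right at 1.73, and Gclc farthest to the left at -0.66.

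Calls among the 10 genes were set beside the share of all tested genes that the same rule called. At the adjusted threshold 0 of 10 were called, where 5.16% of all 22034 tested genes were. With experiments as blocks 1 of 10 (Osgin1) was called, beside 13.9% of all genes. At a fold of at least 2 and an unadjusted p below 0.01, the study's limits, 1 of 10 (Osgin1) was called, beside 7.89% of all genes. At an unadjusted p below 0.05, 2 were higher (Osgin1 and Srxn1) and 1 lower (Gclc), beside 25.0% of all genes. With array weights 6 of 10 were called, 4 higher and 2 lower, beside 33.6% of all genes. The methods' t-test called 0 of 10 after adjustment, beside 0.926% of all genes, and 0 at the study's limits, beside 4.47%. The labels did not overlap for 3 genes higher and 2 lower, 5 of 10, beside 32.6% of all genes (17.1% higher and 15.5% lower).

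The log2 difference was positive for 8 of the 10 genes, with a median of 0.22 beside 0.06 over all genes, of which 54.4% were positive. By experiment the median of the 10 genes was -0.01, 0.42 and 0.30, and that of all genes 0.03, 0.05 and 0.03. The GapmeR control array of experiment 1 was the highest control for 7 of the 10 genes, at 1.79 times the mean of the other controls for Hmox1 and 1.80 times for Gclm. How many of all genes share this was not counted. Its part in the lower median of experiment 1 was not tested. Not every gene was lower there: Osgin1 had its largest difference in experiment 1 (2.15), and Gclm differed by 1.05, beside 0.24 and 1.06. Scaling to the 75th percentile in place of quantile normalization moved the median of all genes to 0.20 and that of the 10 genes to 0.36, and turned the sign of none of the 10.

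**Figure D3:**
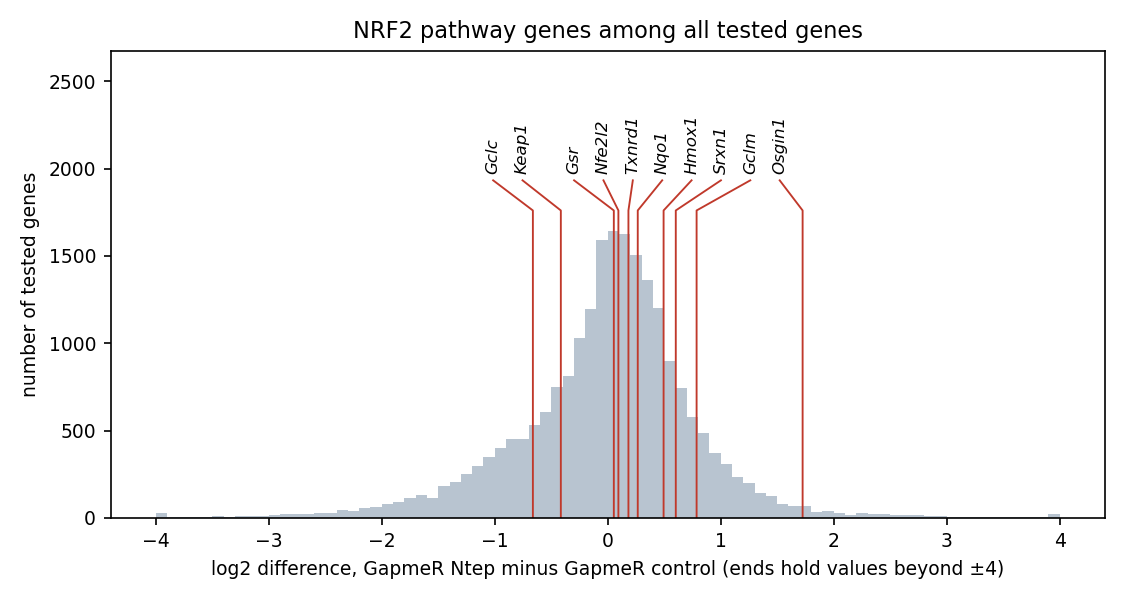
Histogram of the log2 difference (GapmeR Ntep minus GapmeR control) of the 22034 tested genes, with the 10 genes marked by red lines. Osgin1 at 1.73 exceeds 98.3% of them, and Gclc at -0.66 exceeds 17.0%.

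Around these genes, 69 related genes in 7 lists were examined, of which 68 were tested (Nfe2l3 was too dim). Of the 68, 40 were higher and 28 lower, with a median of 0.09, beside 54.4% higher and a median of 0.06 over all genes. Of the 68, 4 were called, 1 higher and 3 lower, beside 5.16% of all genes. With experiments as blocks 8 were called, 4 higher and 4 lower, beside 13.9% of all genes. When any experiment was then left out, 0 were called, and 0 of all genes. The shares called with all arrays lie near those of all genes, so the calls named below are results of single genes and not of the lists. The 4 calls were lost in the 5 omissions of a single array other than GapmeR Ntep replicate 2, and without that array 3 of them were called.

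Among regulators of NRF2, 7 of 11 were higher and 4 lower, with a median of 0.25. Btrc, a subunit of an E3 ligase that can mark NRF2 for degradation, fell by 1.08 (SE 0.17, limma adjusted p = 0.0335). Its arrays read 279, 345 and 273 against 671, 592 and 623. A dimmer Btrc probe differed by -0.43 with overlap and was not called (limma adjusted p = 0.417). Within experiments 1 to 3 that probe differed by -1.10, -0.05 and -0.14. Maff, a small MAF partner of NRF2, had 46648, 26744 and 30875 against 21794, 5520.2 and 6371, a log2 difference of 1.88 (adjusted p = 0.108, or 0.0397 with experiments as blocks). Bach2, a repressor at the same elements, differed by -1.47 (adjusted p = 0.069). Mafk, another small MAF partner, differed by 0.85, and Sqstm1, an adaptor that can sequester KEAP1, by 0.95. Both passed with experiments as blocks (adjusted p = 0.0477 and 0.0378), and they are named here after their values were seen. The probes of Gsk3b, a kinase that marks NRF2 for degradation, disagreed: the brightest differed by -0.48 and was not called, while a dimmer probe was called at 1.08 (adjusted p = 0.0326) and another differed by -1.22 without overlap (adjusted p = 0.147).

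Of 18 genes of glutathione synthesis and use, 10 were higher and 8 lower, with a median of 0.06. Abcc1, an exporter of glutathione conjugates, fell by 1.32 (SE 0.24, limma adjusted p = 0.0381). It read 3568, 5853 and 4964 with GapmeR Ntep against 13300, 11038 and 10907 in the controls. Slc7a11, the cystine transporter, differed by 0.72 (adjusted p = 0.408), and Glrx, a glutaredoxin, by 0.68 (adjusted p = 0.199). Neither was called.

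Of 12 genes of the thioredoxin and peroxiredoxin systems, 8 were higher and 4 lower, and none was called by limma after adjustment. An unadjusted p below 0.05 was reached by 2, beside 25.0% of all genes. Sesn2, a stress-inducible sestrin, differed by 0.83, the mitochondrial thioredoxin Txn2 by 0.63 and its reductase Txnrd2 by 0.36. None of 6 genes of NADPH supply was called, and none had an unadjusted p below 0.05, beside the same 25.0%. G6pdx, the entry enzyme of the pentose phosphate pathway, differed by -0.49, Idh1 by 0.26 and Pgd by 0.25, both of them NADPH-producing dehydrogenases.

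Of 7 genes of haem and iron handling, none was called without blocks. None had an unadjusted p below 0.05, beside 25.0% of all genes. Slc40a1, the iron exporter ferroportin, differed by -1.04 (adjusted p = 0.323, or 0.0436 with experiments as blocks). Blvrb, a biliverdin reductase, differed by -0.52 and Hmox2, the constitutive haem oxygenase, by 0.44. A dimmer Hmox2 probe differed by 0.71 without overlap (limma adjusted p = 0.0765, or 0.047 with experiments as blocks). Of 10 genes of quinone, aldehyde and other detoxification, 5 were higher and 5 lower. Ephx1, the microsomal epoxide hydrolase, fell by 1.84 (SE 0.37, limma adjusted p = 0.0469), from 29509, 49686 and 46081 in the controls to 7572, 17148 and 11299.5. A dimmer Ephx1 probe differed by -1.16 (limma adjusted p = 0.128, or 0.0415 with experiments as blocks). Aldh3a1, an aldehyde dehydrogenase, differed by 0.74 (adjusted p = 0.0967, or 0.0445 with experiments as blocks), and Aox1, an aldehyde oxidase, by -0.70. Of 4 genes that remove superoxide and peroxide, Cat, which encodes catalase, rose by 0.94 (SE 0.19, limma adjusted p = 0.0492), and passed only without blocks (adjusted p = 0.0511 with them). It read 16550.3, 12079 and 12841 against 6608, 7265 and 7638. A dimmer Cat probe differed by 0.64 and was not called (limma adjusted p = 0.115). Sod2 differed by 0.22 and Sod1 by -0.21.

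**Figure D4:**
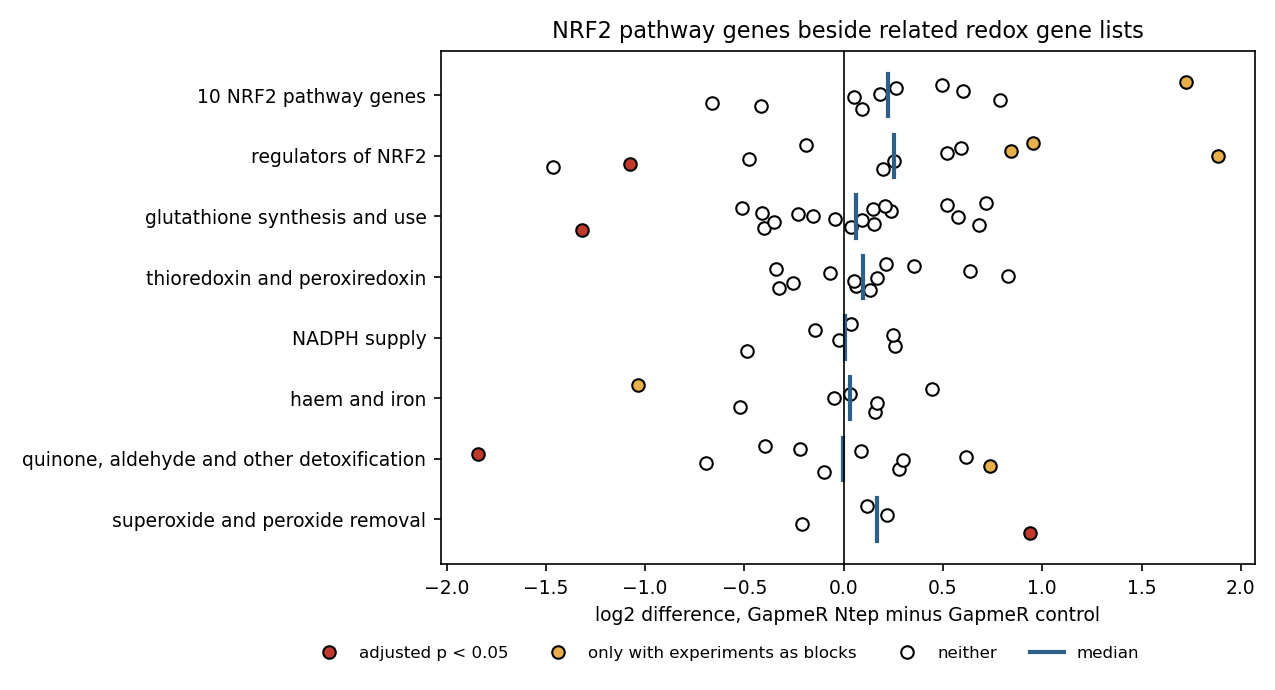
Log2 difference of GapmeR Ntep minus GapmeR control for the 10 genes and the 7 related lists (1 circle per gene, brightest probe; blue bar, median). Red circles passed the adjusted threshold, yellow circles passed only with experiments as blocks, and open circles passed neither.

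Markers of other cell types were read on the same arrays. Of 8 macrophage markers 6 were tested, 4 higher and 2 lower. Of these 1 was called, beside 5.16% of all genes. With experiments as blocks 4 were called higher and 1 lower, beside 13.9% of all genes. Among these markers Cd68 rose by 1.21 (SE 0.17, limma adjusted p = 0.0287), at 11892, 11259.6 and 9404 against 5022, 4587 and 4380.5. A dimmer Cd68 probe differed by 0.68 and was not called (limma adjusted p = 0.143). Aif1, of the same list, differed by -1.28 (adjusted p = 0.276, or 0.0421 with experiments as blocks), and Lyz2 by -0.18 (adjusted p = 0.746). The summed level of all 8 markers was 42986 to 75392 with GapmeR Ntep and 21070.0 to 27731 in the controls. Itgam was the largest part of that sum on every array. Its brightest probe differed by 1.26 (limma adjusted p = 0.0881), while its other tested probe differed by -0.03. Csf1r had the largest difference of the list, 3.19 (limma adjusted p = 0.151, or 0.0387 with experiments as blocks). Its other tested probe differed by 0.44. Itgam had the highest mean intensity over all arrays, and Ptprc, with the lowest, lay at the floor of 20 on 5 of 6 arrays. Epithelial markers, with Krt19 highest and Epcam lowest in mean intensity, summed to 5935 to 7665 against 4387 to 6926, and endothelial markers to 728 to 806 against 559 to 635, with Kdr highest and Tek at the floor on all arrays. Their part in the differences of the 10 genes was not tested.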

How the data were processed

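RNA from 6 cultures of 3T3 cells (3 GapmeR Ntep, 3 GapmeR control, from 3 independent experiments) was measured on 6 arrays. Per array, the authors deposited the linear intensities that Agilent Feature Extraction 10.7.3.1 read from the scan after subtraction of background, before any normalization across arrays. A deposited value table holds their quantile normalized intensities, floored at 20, and 158 probes of it differ by over 0.1 in log2 from the values computed here. The methods and the documentation of the study name different formats of the array.

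The 10 genes and all related lists were chosen with earlier results of these data known. Here the spots of each of 55681 probes were averaged and quantile normalized, anything under 20 was raised to 20, and log2 intensities were fitted by limma (version 3.58.1, run in R version 4.3.3, with data.table version 1.17.8 for reading). The fit was unpaired and two-sided. A probe entered it if its mean reached 50 in the brighter group (30990 probes), with Benjamini-Hochberg adjustment over all of these. The brightest probe stood for a gene. Control spots (3671) were left out. Every gene of the 10 is named. Of each related list, genes past adjustment are named, up to 4, then the largest differences up to 3 in all. Of marker lists, the brightest and dimmest are named, and further markers named were chosen after their values were seen.

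Experiment numbers come from the study's array documentation, which pairs cultures by day. Residuals of same-numbered arrays correlated at 0.466, 0.300 and 0.254, and of other pairs at -0.327 to 0.126, so a fit with the replicate block was run beside the unpaired one. The 3 arrays per label limit the precision. In simulated data of 30990 probes, limma after adjustment called 0% of 50 probes changed 2-fold. It called 66% of 50 changed 4-fold and 95% of 100 changed 8-fold, and 8 other probes. In the real data it called 1642 probes, Cat among them at a log2 difference of 0.94. Adjustment depends on how many probes change, so the simulated rates need not hold for the real data. Other normalizations, background corrections, floors, filters, variance models, probes and thresholds, the methods' t-test the omission of each array and, after seeing the data, of each experiment from the blocked fit were tried. Probe positions are those of mm9 in the files, and promoter windows those of GRCm38.p6 in RefSeq. Exon and UTR positions of the probes were not analysed here.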

Additional observations from a re-analysis of the deposited data

How the results depend on the processing

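Of the 10 genes, 0 were called with 75th percentile scaling, the authors' values, no floor, no intensity filter, outlier spots left out, any probe of a gene, the methods' t-test, or any array left out. Counts of 1 came from normexp correction, from probes well above background on all arrays, from the replicate block, from a variance trend and from the study's limits, each time Osgin1. Array weights, which ran from 0.303 (GapmeR Ntep replicate 1) to 3.04 (GapmeR Ntep replicate 3), gave 6, and an unadjusted p below 0.05, chosen after seeing the data, gave 3. The difference of Osgin1 stayed between 1.34 and 2.01, with adjusted p from 0.0055 to 0.235. The replicate block changed no other call among the 10 genes.

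Related genes called went from 4 to 1 without an intensity filter, 8 with the replicate block, 19 with array weights, 0 with the methods' t-test, 16 at an unadjusted p below 0.05 and 2 by the methods' t-test at the study's limits (both chosen after seeing the data). They ranged from 0 to 3 with an array left out. All genes called went from 1137 to 1866 with normexp, 401 without an intensity filter, 1802 with probes well above background, 3070 with the replicate block, 2005 with a trend, 7407 with array weights and 204 with the methods' t-test, and ranged from 0 to 915 with an array left out, where the lowest came from omitting GapmeR control replicate 2 or GapmeR Ntep replicate 3. The replicate block without any experiment, chosen after seeing the data, called 0 of the 10 genes, 0 related genes and 0 of all genes, and leaves 2 pairs. The cause of these shifts was not tested. Signs turned only with an array or experiment left out. Nfe2l2 then ranged from -0.022 (no GapmeR control replicate 3) to 0.20. Gsr ranged from -0.081 to 0.24 and its dimmer probe from -0.065 to 0.20, negative in both without either GapmeR Ntep replicate 1 or GapmeR control replicate 2. In the blocked fit Nfe2l2 was -0.064 without experiment 3, and Gsr was -0.086 and the targeted RNA 0.061 without experiment 2. With an array left out the targeted RNA ranged from -1.06 to 0.13. Matches in promoters lay in 4 genes with TGACNNNGC alone, against 5. No probe of the 10 genes was limited by background or saturation.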
